A study of Mus musculus with 12 samples.

Results

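Oxidative phosphorylation genes were followed in mouse CD8 T cells that lacked Tmed10 or received AGN192403, at rest and after stimulation through the T cell receptor. Members were taken by gene symbol: nuclear genes beginning with Ndufa, Ndufb, Ndufs, Ndufv, Sdha to Sdhd, Uqcr, Cox4 to Cox8 or Atp5, with symbols ending in -ps left out, and the mitochondrial genes beginning with mt-Nd, mt-Co, mt-Cytb or mt-Atp. The rule found 112 of 46603 genes, of which 99 were nuclear and 13 mitochondrial. An expression filter (edgeR's filterByExpr over the 6 groups) kept 98 of them, 91 nuclear and 7 mitochondrial, among 13167 genes tested. By role the nuclear members were 73 subunits of complexes I to V (72 kept), 12 assembly factors caught by the Ndufaf and Sdhaf prefixes (12 kept), 13 tissue-restricted or related paralogues (6 kept) and the coupling factor Atp5s.

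RNA was sequenced from 12 libraries of OT-I/Cas9 cells, which carry a transgenic receptor for an ovalbumin peptide and a genomic Cas9. Per the study's methods, CD8 T cells isolated from spleens were activated with anti-CD3 and anti-CD28, transduced with a guide retrovirus and kept under puromycin selection before the treatments compared here, so every group, controls included, had been activated before and carried a guide. The 6 groups held 2 libraries each. Activated Tmed10 knockout cells (Tmed10 guide) received vehicle, water, for 24 h with anti-CD3 at 2.5 µg/mL for 24 h, and resting knockout cells received vehicle without anti-CD3. Activated AGN192403 cells (control guide) received 100 µM AGN192403 for 24 h with the same anti-CD3, and resting AGN192403 cells received 100 µM AGN192403 alone. Activated and resting control cells carried the control guide and received vehicle with or without anti-CD3. AGN192403 was given to control-guide cells only, and the knockout and AGN192403 comparisons share the same control libraries. The knockout cells were a guide-transduced population and not a clone. Nothing in the labels says that the 2 libraries of a group came from separate mice or cultures, so the p-values measure the spread between these libraries, which may be technical. In bulk RNA, fewer cells of a type and less RNA per cell cannot be told apart.

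The respiratory chain moves electrons from NADH (complex I) and succinate (complex II) through coenzyme Q, complex III, cytochrome c and complex IV to oxygen, and complex V (ATP synthase) makes ATP from the proton gradient that complexes I, III and IV build. Most subunits are encoded in the nucleus and imported, whereas a small set of hydrophobic core subunits of complexes I, III, IV and V is transcribed from the circular mitochondrial genome as long polycistronic RNAs that are cut into separate transcripts. Complex II is entirely nuclear encoded. Activated T cells are known to enlarge their mitochondria and to raise respiration as well as glycolysis.

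Libraries held 9089350 to 16481840 gene-assigned counts. Tmed10 was at 55.9 to 65.1 CPM (a gene's count scaled to the library's TMM-adjusted total) in the 4 knockout libraries, against 116 to 144 CPM in the other 8. The 10 CD8 T cell markers summed to 12399 to 23238 CPM per library, and without Gzmb, a granule protease that takes most of this sum, the other 9 to 2682 to 4302 CPM. CD4 T cell markers summed to 40.5 to 74.8 CPM, nearly all of it Zbtb7b (Cd4 itself was at 0.378 to 1.29 CPM), and NK cell markers to 82.1 to 173 CPM, nearly all of it Eomes. B cell markers summed to 0.944 to 8.08 CPM, myeloid markers to 1.98 to 14.4 CPM and erythroid markers to at most 0.3996 CPM. The nuclear-retained RNAs Malat1, Neat1 and Kcnq1ot1 summed to 686 and 585 CPM in activated knockout, 2154 and 1007 CPM in activated AGN192403 and 1864 and 1191 CPM in activated control libraries. The resting libraries had 1035 and 1053 CPM in knockout, 1519 and 1547 CPM in AGN192403, and 3043 and 1877 CPM in control cells. Replicate 1 was the richer library in activated AGN192403, activated control and resting control cells, so counts of members were also taken without those 3 libraries together, an alternative chosen after the data were seen.

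Of the 13 mitochondrial members, mt-Nd3, mt-Nd4l, mt-Co2, mt-Co3, mt-Atp6 and mt-Atp8 were at 0 counts in all 12 libraries. For 5 of these 6 genes, 97.9% to 99.9% of all 65-base stretches, the length of the reads, also occurred in a second annotated gene in GRCm38, mostly copies of the mitochondrial genome on chromosome 1. A read that matches more than 1 gene is commonly left uncounted, and the copies themselves held few counts (0 to 13 over 12 libraries for those on chromosome 1). The sixth, mt-Atp8, shared 0% of its stretches with another annotated gene, and why it held no counts was not tested. How reads that match more than 1 gene were counted here was not tested either, so the listed zeros are not read as absence of transcription. The mitochondrial set describes 7 genes. Of those, mt-Nd4 shared 61.8% and mt-Co1 44.3% of its stretches with another gene, mt-Nd2 6.7%, mt-Nd5 3.1%, and mt-Nd1, mt-Nd6 and mt-Cytb 0%. To show this difference, a stretch of a gene with no counts is set beside one of a counted gene, each from the plus strand of GRCm38, with a read-length window of 65 bases in capitals. The windows of mt-Co3 (chrM:8956-9040, subunit of complex IV) and mt-Atp6 (chrM:8225-8309, the proton channel subunit a of complex V) each occur in 1 other gene, Gm28437 and Gm10925, and that of mt-Nd1 (chrM:3187-3271, complex I) in 0 others.
mt-Co3: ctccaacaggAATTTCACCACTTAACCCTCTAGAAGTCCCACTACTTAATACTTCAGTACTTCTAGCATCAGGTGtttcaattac
mt-Atp6: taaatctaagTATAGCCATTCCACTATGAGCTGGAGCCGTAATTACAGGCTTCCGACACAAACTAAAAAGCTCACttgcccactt
mt-Nd1: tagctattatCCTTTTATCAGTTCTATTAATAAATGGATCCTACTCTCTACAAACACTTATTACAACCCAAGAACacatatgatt

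The 7 counted mitochondrial genes took 1.16% to 1.40% of all counts and the nuclear members 0.79% to 0.95%. Per kilobase of transcript, mt-Co1, the catalytic subunit of complex IV, had the highest mean level of any member (2827 CPM per kb over the 12 libraries), although part of its reads may be uncounted. The highest nuclear level per length was that of Atp5b, the catalytic beta subunit of ATP synthase (661 CPM per kb), and the lowest among tested members that of Sdhaf3, an assembly factor of complex II (1.11 CPM per kb). The summed level of the 7 mitochondrial genes was 14242 and 13293 CPM in activated knockout cells, 11717 and 12583 CPM in activated AGN192403 cells and 11900 and 12640 CPM in activated control cells. At rest the sums were 11495 and 11690 CPM in knockout, 13408 and 12539 CPM in AGN192403 and 11679 and 12840 CPM in control cells. Among the groups, only activated knockout had both libraries above every library of activated control cells, by a ratio of means of 1.12. Both also lay above both resting knockout libraries (ratio 1.19), whereas activated and resting control libraries overlapped (ratio 1.00).

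**Figure D1:**
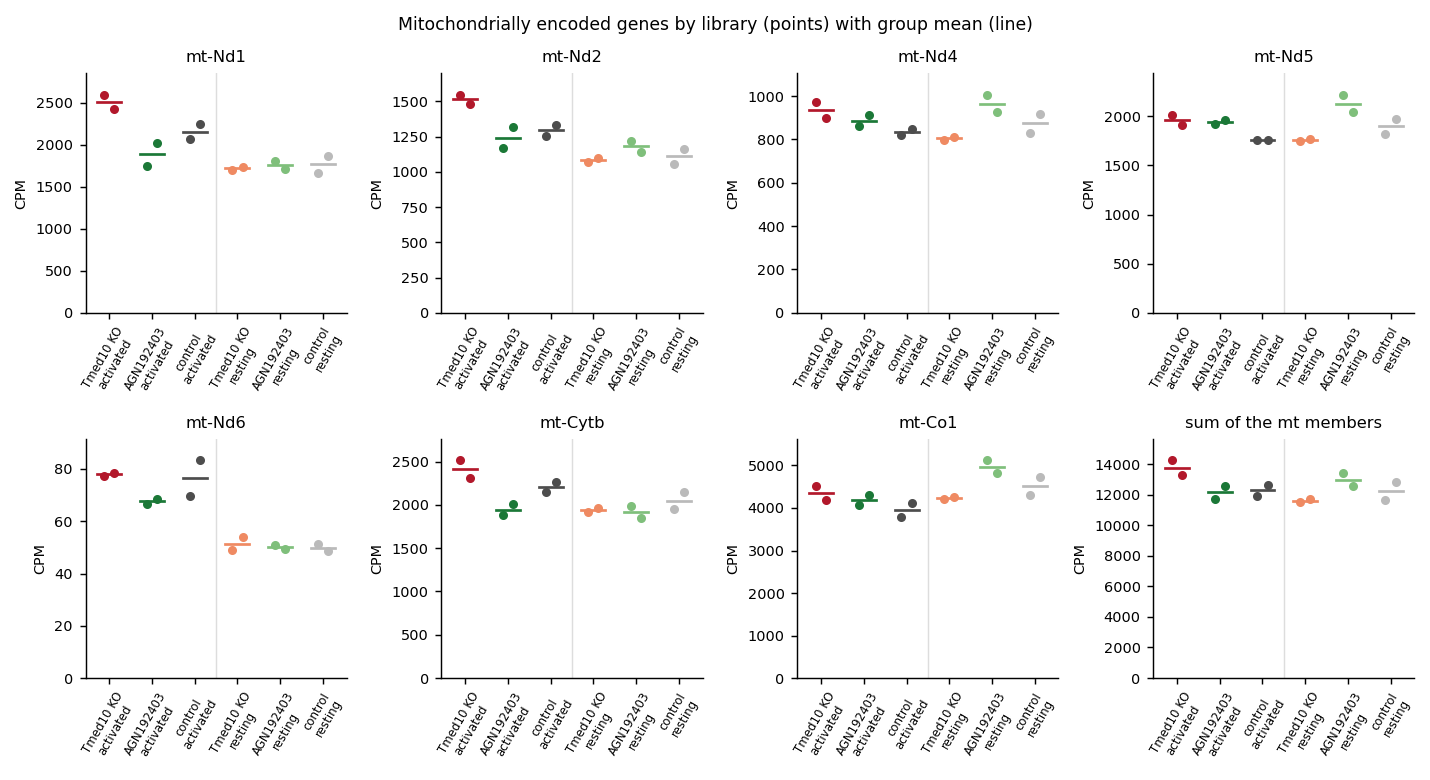
CPM of the 7 counted mitochondrial genes in each library (points) with the group mean (line), and their sum, in 6 groups of 2 libraries, linear axes from 0. In activated cells mt-Nd1 and mt-Nd2 stood higher in both knockout libraries than in both control libraries, and mt-Nd6 stood higher in every activated than in every resting library.

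With activation, the 7 mitochondrial genes did not move together. In control cells 4 were called higher and 2 lower in activated than in resting libraries, where 36.4% of all genes tested were called higher and 37.4% lower. The clearest rise was mt-Nd6, a complex I subunit and the only protein-coding gene on the light strand of the mitochondrial genome. It was at 69.7 and 83.3 CPM in activated control cells, against 51.3 and 48.7 CPM in resting control cells (log2 fold change 0.62). Its activated level was 77.5 and 78.5 CPM in knockout and 66.7 and 68.4 CPM in AGN192403 cells, against 48.9 and 53.8 CPM in resting knockout and 50.9 and 49.3 CPM in the resting AGN192403 group, with no overlap between activated and resting libraries in any of the 3 cell populations. By contrast mt-Co1 was at 3783 and 4106 CPM in activated and 4298 and 4729 CPM in resting control cells, a fall of 0.19 on the log2 scale (adjusted p = 0.00048), and at 4067 and 4297 CPM in activated and 5121 and 4819 CPM in resting AGN192403 cells. In knockout cells mt-Co1 was at 4527 and 4193 CPM activated and 4212 and 4262 CPM resting, where the libraries overlapped (log2 fold change 0.04, adjusted p = 0.417). The other rises in control cells were those of mt-Nd1 (0.29), mt-Nd2 (0.22) and mt-Cytb (0.11), and mt-Nd5 fell by 0.11. The calls of mt-Cytb and mt-Nd5 were lost without several single libraries, with adjusted p up to 0.517 and 0.387 over the 21 alternatives.

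In activated cells, 5 of the 7 mitochondrial genes were called higher in Tmed10 knockout than in control cells, and the other 2 were not called, where 10.8% of all genes were called higher and 8.78% lower. The 5 were mt-Co1 and the genes mt-Nd5, mt-Nd4, mt-Nd2 and mt-Nd1, which encode subunits of the membrane arm of complex I. mt-Nd2 had 1545 and 1481 CPM in activated knockout cells, against 1253 and 1335 CPM in activated control cells (log2 fold change 0.23, adjusted p = 0.00187). mt-Nd1 had 2593 and 2426 CPM in activated knockout cells, against 2066 and 2242 CPM in activated control cells (0.22, adjusted p = 0.0047). The groups did not overlap for either gene. The rises of mt-Nd4, mt-Nd5 and mt-Co1 were 0.17, 0.15 and 0.14 on the log2 scale. These calls rest on single libraries: 0 of the 7 genes were called higher by edgeR without replicate 1 of activated control cells and 1 without replicate 1 of activated knockout cells, and 6 of 7 had an unadjusted p under 0.05 with all libraries. With activation the knockout cells had 6 of 7 mitochondrial genes called higher, all but mt-Co1, where 37.2% of all genes were called higher and 36.5% lower. Of these mt-Nd1 was at 2593 and 2426 CPM activated and 1705 and 1736 CPM resting (log2 fold change 0.55). In the direct test of whether the activation response differed between knockout and control cells, 4 of 7 mitochondrial genes had a larger response in knockout cells: mt-Nd4 (difference 0.29 on the log2 scale), mt-Nd5 (0.27), mt-Nd2 (0.26) and mt-Co1 (0.24). Over all genes, 3.07% were called with a larger and 1.89% with a smaller response, and of the 91 nuclear members 0 were called in either direction by edgeR (4 higher and 2 lower at an unadjusted p under 0.05; DESeq2 called mitochondrial members only). The count of 4 fell to 0 without replicate 2 of resting control, replicate 1 of resting knockout or replicate 1 of activated knockout cells, to 1 without replicate 1 of activated control cells and to 2 without replicate 2 of resting knockout cells. The nuclear-retained RNAs were lower in knockout than in control libraries in both states. Their means were 636 against 1528 CPM in activated cells and 1044 against 2460 CPM at rest. The part of these RNAs in the mitochondrial differences was not tested.

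AGN192403 went with a different mitochondrial pattern. In activated cells mt-Nd1, mt-Cytb and mt-Nd6 were called lower with AGN192403 than with vehicle, and mt-Nd5 higher, where 18.3% of all genes were called lower and 16.4% higher. mt-Nd1 had 1752 and 2018 CPM in activated AGN192403 cells, against 2066 and 2242 CPM in activated control cells, a fall of 0.19 on the log2 scale. mt-Cytb, the cytochrome b subunit of complex III, had 1879 and 2007 CPM in activated AGN192403 cells, against 2146 and 2264 CPM in activated control cells (log2 fold change -0.18, adjusted p = 0.00375). All 3 falls lost their call without replicate 2 of activated control cells, and those of mt-Nd1 and mt-Nd6 also without replicate 1 of activated AGN192403 cells. Their highest adjusted p over the 21 alternatives was 0.161 for mt-Nd1, 0.0661 for mt-Cytb and 0.695 for mt-Nd6. mt-Nd5 had 1924 and 1967 CPM in activated AGN192403 cells, against 1761 and 1765 CPM in activated control cells (0.14, adjusted p = 0.00868), a call that was kept in every alternative. At rest 3 of 7 mitochondrial genes were called higher with AGN192403, where 11.6% of all genes were called higher and 13.7% lower. They were mt-Nd5 (0.16), mt-Nd4 (0.14) and mt-Co1 (0.14), and 0 of these calls held without replicate 1 of resting AGN192403 or replicate 1 of resting control cells. The ratio of mitochondrial to nuclear counts was 1.64 and 1.51 in resting AGN192403 cells, against 1.47 and 1.58 in resting control cells, which overlapped. It was 1.35 and 1.37 in activated AGN192403 cells, against 1.27 and 1.30 in activated control cells, which did not. In activated knockout cells the ratio was 1.47 and 1.37, also above both activated control libraries. In resting knockout cells it was 1.37 and 1.39, below both resting control libraries.

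Activation was the comparison in which the most members were called. In control cells 47 of 98 members were higher and 18 lower in activated than in resting cells, 48.0% and 18.4%, where 36.4% of all genes tested were higher and 37.4% lower. The median log2 fold change was 0.16 over members and -0.02 over all genes. The balance differed by complex. Of complex II subunits 4 of 4 were higher, of complex III 7 of 8 and of the assembly factors 8 of 12, and the rest of these were not called. Of complex I subunits 15 were higher and 8 lower of 34, of complex V 6 and 4 of 15, and of complex IV 3 and 2 of 11. The median log2 fold change was 0.14 for complex I, 0.17 for complex II, 0.50 for complex III, 0.00 for complex IV, -0.01 for complex V and 0.62 for assembly factors. Those medians give each gene equal weight. Summed over its subunits, complex V rose 1.31-fold and complex III 1.36-fold in activated over resting control cells, and all nuclear subunits together 1.19-fold, with no overlap between libraries in any of the 3. Such sums follow the most abundant genes, which for complex V were Atp5b (log2 fold change 0.73) and Atp5a1 (0.47). In knockout cells activation gave 50 members higher and 15 lower, where 37.2% of all genes were higher and 36.5% lower, and in AGN192403 cells 31 higher and 22 lower, where 33.9% were higher and 36.1% lower. In both, Ndufaf4 (1.71 in knockout and 1.21 in AGN192403 cells), Sdhaf1 (1.69 and 1.23) and Atp5g1 (1.15 and 0.92) were among the 4 largest rises, and Ndufv3 (-0.67 and -0.67), Cox7a2l (-0.63 and -0.72), Ndufa3 (-0.51 and -0.55) and Ndufb11 (-0.47 and -0.41) were the 4 largest falls of members with at least 10 CPM. The counts of 50 and 31 rises include Cox6a2, which entered the test only through activated knockout and activated AGN192403 cells.

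**Figure D2:**
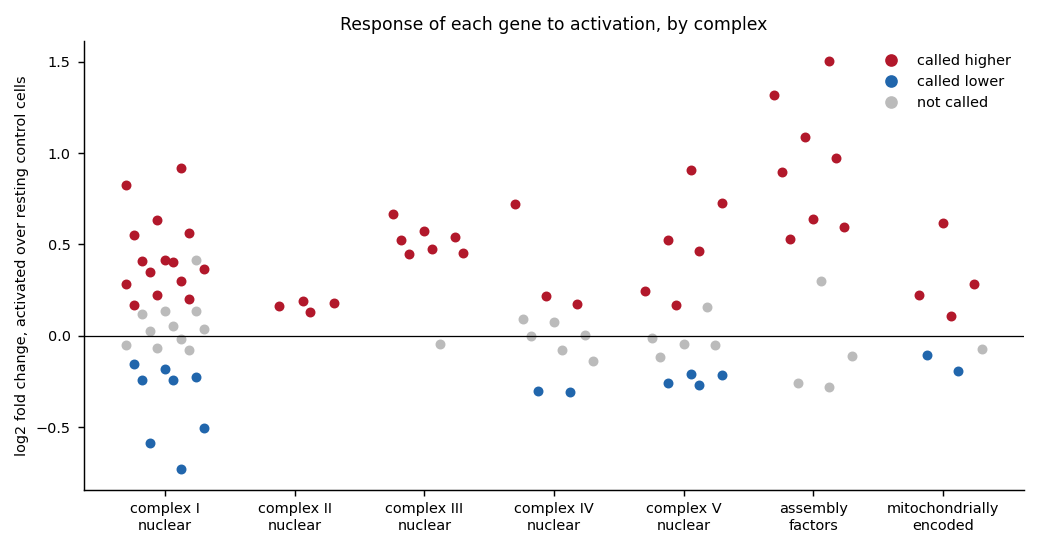
Log2 fold change of each tested member between activated and resting control cells, a point per gene, for the nuclear subunits by complex, the assembly factors and the mitochondrial genes. Red points were called higher, blue points lower and grey points neither, at an adjusted p under 0.05. In complex III 7 of 8 subunits were called higher, while complexes I, IV and V held called genes on both sides of 0.

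Among the core subunits, which carry the catalytic and cofactor-binding centres, 16 of 20 were higher and 2 lower in activated control cells, and among the accessory subunits 19 of 52 were higher and 12 lower. Atp5b, the beta subunit of ATP synthase, was at 1627 and 1633 CPM in activated and 963 and 1005 CPM in resting control cells (log2 fold change 0.73, adjusted p = 3.27e-15). Atp5a1, the alpha subunit that forms the catalytic head with it, was at 1000 and 1036 CPM in activated and 729 and 745 CPM in resting control cells (0.47). Neither gene overlapped between the states, and Atp5c1, the gamma subunit of the rotor stalk, did not pass (-0.01, adjusted p = 0.826). In complex III the large matrix-facing proteins Uqcrc1 (0.57) and Uqcrc2 (0.54), counted here as accessory, and the Rieske iron-sulphur protein Uqcrfs1 (0.45) rose. In complex I the iron-sulphur subunit Ndufs1 (0.41) and the flavin subunit Ndufv1 (0.36) rose, as did Ndufs8 (0.35) and Ndufs7 (0.28). The 4 genes of succinate dehydrogenase (complex II) rose by between 0.13 for Sdhb, the iron-sulphur protein, and 0.19 for Sdhd, a membrane anchor, with Sdha, the flavoprotein, at 0.18 and Sdhc, the other anchor, at 0.17. The calls of Sdhb and Sdhc were lost without replicate 1 of resting control or replicate 2 of activated control cells. In complex IV the nuclear subunits Cox4i1 (-0.08), Cox5a (0.00) and Cox5b (-0.14) did not pass.

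The largest rises with activation were those of assembly factors and a few small subunits. Ndufaf4, which helps to assemble complex I, was at 48.4 and 48.1 CPM in activated and 16.6 and 17.3 CPM in resting control cells (log2 fold change 1.504, SE 0.089, adjusted p = 6.33e-14). The same gene was at 47.4 and 53.8 CPM in activated and 16.4 and 13.3 CPM in resting knockout cells, and at 44.5 and 46.7 CPM in activated and 20.7 and 19.0 CPM in resting AGN192403 cells, with no overlap between activated and resting libraries in any population. Sdhaf1, an assembly factor of complex II, rose by 1.32, but 69.6% of its exonic bases overlap E130208F15Rik on the opposite strand, and the strand setting of the counting is not given in the sources used here. Ndufaf6 (1.09) and Ndufaf2 (0.97), further complex I assembly factors, rose too, and Ndufaf2 overlaps B230220B15Rik over 65.6% of its exonic bases. Ndufa12, an accessory subunit of complex I, rose by 0.92 (adjusted p = 1.48e-08), and Atp5g1, which encodes the c subunit of the proton-driven ring of ATP synthase, by 0.91.

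The members that fell were accessory subunits for the most part. Cox7a2l, which takes part in joining complexes III and IV into supercomplexes, was at 44.8 and 49.5 CPM in activated and 82.9 and 82.9 CPM in resting control cells (log2 fold change -0.81, adjusted p = 4.13e-12). Ndufv3, a subunit of the NADH-binding module of complex I, was at 66.1 and 65.03 CPM in activated and 108.6 and 109.0 CPM in resting control cells (-0.73). Ndufb11 fell by 0.59 and Ndufa3 by 0.51, both accessory subunits of the complex I membrane arm, and Ndufb11 shares 12.9% of its exonic bases with Rbm10. Cox8a, a small complex IV subunit, fell by 0.30. For each of these 5 genes the activated and resting control libraries did not overlap.

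**Figure D3:**
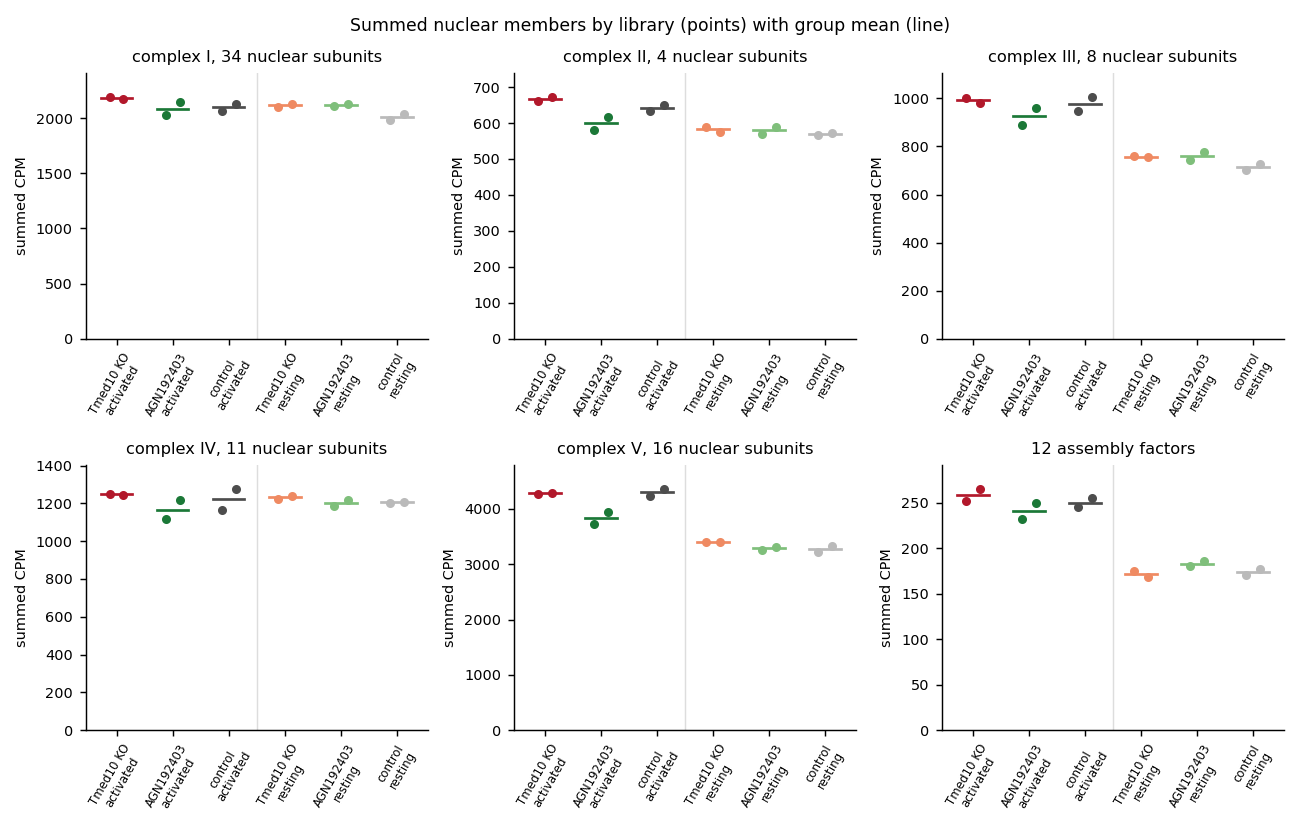
Summed CPM of the nuclear subunits of each complex and of the assembly factors in each library (points) with group means (lines), 6 groups of 2 libraries, axes from 0. Activated libraries stood above resting ones for complex III and complex V in all 3 cell populations, and within activated cells the complex V sum was lower with AGN192403 than with vehicle (ratio of means 0.892).

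In activated cells, Tmed10 knockout gave 15 members higher and 1 lower than control, 15.3% and 1.02% of those tested, where 10.8% of all genes were higher and 8.78% lower. Of the nuclear members 10 were higher. They included Sdhaf1 (0.38), Cox7a2l (0.32, adjusted p = 0.000431) and Uqcrq, a small complex III subunit (0.27, adjusted p = 0.00114). They also included Cox6a2, the form of complex IV subunit VIa known from heart and skeletal muscle, which entered the test only through activated knockout and activated AGN192403 cells and is described by its counts further on. Atp5g1 (0.25) and Sdhc (0.19) also passed. Cox7a2l was at 58.7 and 59.2 CPM in activated knockout cells, against 44.8 and 49.5 CPM in activated control cells, with no overlap. Uqcrq was at 105.8 and 101.9 CPM in activated knockout cells, against 80.6 and 92.6 CPM in activated control cells. The member that fell was Atp5g3, a further gene for the c subunit, at 258.8 and 232.5 CPM in activated knockout cells and 266.8 and 292.1 CPM in activated control cells (-0.18, adjusted p = 0.0116). The summed nuclear subunits of activated knockout and control libraries overlapped (ratio 1.01). The count of 16 members called fell to 4 without replicate 1 of activated control cells, 7 without replicate 1 of activated knockout cells, 9 without the 3 libraries rich in nuclear RNA and 7 with DESeq2. Of the 16 calls, 14 were lost on leaving out at least 1 library, and apart from Cox6a2, only Cox7a2l passed in all 21 alternatives.

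At rest, knockout cells had 4 members higher than control cells and 0 lower, 4.08% where 2.81% of all genes were higher, and 4.63% were lower. At an unadjusted p under 0.05 edgeR had 10 nuclear members higher, and 2 mitochondrial and 0 nuclear members lower. The 4 were Ndufa5 (0.32), Ndufa7 (0.21) and Ndufa10 (0.18), accessory subunits of complex I, and Atp5h, the d subunit of the ATP synthase stalk (0.16). The count was 0 without replicate 1 of resting control or replicate 2 of resting knockout cells, 1 without replicate 2 of resting control or replicate 1 of resting knockout cells, 7 without either library of activated AGN192403 cells, and 0 with DESeq2, which had 10 members at an unadjusted p under 0.05.

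In activated cells, AGN192403 gave 10 members higher and 16 lower than vehicle, 10.2% and 16.3%, against 16.4% and 18.3% of all genes, so that the overall count was no larger than that of genes in general. Within the set the core subunits were on the lower side, 7 of 20 lower and 1 higher, and of complex V 5 of 15 were lower and 1 higher. Atp5b was at 1364 and 1446 CPM in activated AGN192403 cells, against 1627 and 1633 CPM in activated control cells (log2 fold change -0.21, SE 0.04, adjusted p = 4.86e-05). Atp5a1 was at 869 and 923 CPM in activated AGN192403 cells, against 1000 and 1036 CPM in activated control cells (-0.18). Atp5g3 (-0.31), Uqcrfs1 (-0.30), Uqcrc1 (-0.22) and Sdha (-0.19) also fell, in every alternative, as did Sdhd (-0.23), which lost its call without the 3 libraries rich in nuclear RNA. The assembly factors Ndufaf6 (-0.40) and Ndufaf2 (-0.38) fell too, but neither call held without replicate 1 of activated control cells. The calls of Cox4i1 (-0.16) and Atp5c1 (-0.16) were lost without replicate 2 of activated control or replicate 1 of activated AGN192403 cells. On the higher side stood, beside Cox6a2, Uqcrq (0.47, adjusted p = 2.48e-07), Sdhaf1 (0.38), Cox7a2l (0.35), Atp5g1 (0.32) and Cox6a1, the widely expressed form of subunit VIa (0.21), of which the call of Sdhaf1 was lost without replicate 1 of either group. With library totals in place of TMM scaling the split was 15 higher and 13 lower, and DESeq2 called 17 members in all. Of the 26 calls, 12 were lost on leaving out at least 1 library. Of the CD8 T cell markers, Gzmb was at 12900 and 13914 CPM in activated AGN192403 cells, against 19550 and 20457 CPM in activated control cells, while the other 9 summed to 2682 and 2902 CPM, against 2695 and 2781 CPM, and overlapped. The CD4 T cell list summed to 74.8 and 72.2 CPM in activated AGN192403 cells, against 45.5 and 40.5 CPM in activated control cells, and the NK cell list to 109 and 117 CPM, against 82.1 and 82.4 CPM. The part of Gzmb, Zbtb7b and Eomes in the result was not tested.

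At rest the direction was the other way, with 18 members higher and 1 lower with AGN192403 than with vehicle, 18.4% and 1.02%, against 11.6% and 13.7% of all genes. The 18 include Cox6a2, which entered the test only through activated knockout and activated AGN192403 cells. Complex I had 6 subunits higher of 34, complex II 1 of 4, complex III 2 of 8, complex IV 2 of 11, and complex V 1 of 15, and the single fall was that of Cox8a (-0.21), lost without replicate 2 of resting control or of resting AGN192403 cells. Ndufa4, long counted with complex I and now placed in complex IV, was at 44.7 and 48.7 CPM in resting AGN192403 cells, against 34.8 and 35.6 CPM in resting control cells (log2 fold change 0.41, adjusted p = 0.000105). Ndufab1, the mitochondrial acyl carrier protein that is also a complex I subunit, was at 18.4 and 19.6 CPM in resting AGN192403 cells, against 14.6 and 14.7 CPM in resting control cells (0.38), but its call was lost without replicate 2 of resting AGN192403 cells, as were those of Atp5g1 (0.31) and Ndufa5 (0.31). Ndufv1 (0.25), Cox7a2l (0.26) and Uqcrc2 (0.20) rose, and with Ndufa4 these were the 4 genes called in all 21 alternatives. The count of 19 members called fell to 10 without replicate 1 of resting control cells, 10 without replicate 2 of resting AGN192403 cells and 7 with DESeq2.

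The interaction test asked directly whether the response to activation differed between AGN192403 and vehicle. The activation response of 12 members was smaller with AGN192403 than with vehicle and that of 1 was larger, 12.2% and 1.02%, where 11.1% and 8.62% of all genes were called. The share with a smaller response was close to that of all genes, while the share with a larger one was below it. The largest was Ndufa4, at 49.1 and 53.0 CPM activated and 44.7 and 48.7 CPM resting with AGN192403, against 55.7 and 60.3 CPM activated and 34.8 and 35.6 CPM resting with vehicle (difference in log2 fold change -0.59, adjusted p = 7.53e-05). Ndufab1 (-0.53), Ndufa5 (-0.46), Ndufa12 (-0.44), Uqcrfs1 (-0.33), Ndufv1 (-0.27), Atp5a1 (-0.23) and Atp5b (-0.18) were among the others, in all 6 of 20 core subunits. Uqcrq was the gene with a larger response (0.27). None of the 7 mitochondrial genes was called by edgeR or DESeq2, and by edgeR 2 were lower at an unadjusted p under 0.05. The count of 13 fell to 8 without replicate 1 of resting control cells, to 7 without replicate 2 of resting AGN192403 cells, to 8 without the 3 libraries rich in nuclear RNA and to 5 with DESeq2, and was 31 without replicate 2 of activated AGN192403 cells. Of the 13 calls, 8 were lost on leaving out at least 1 library, and Ndufa4 and Atp5a1 passed in every alternative.

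**Figure D4:**
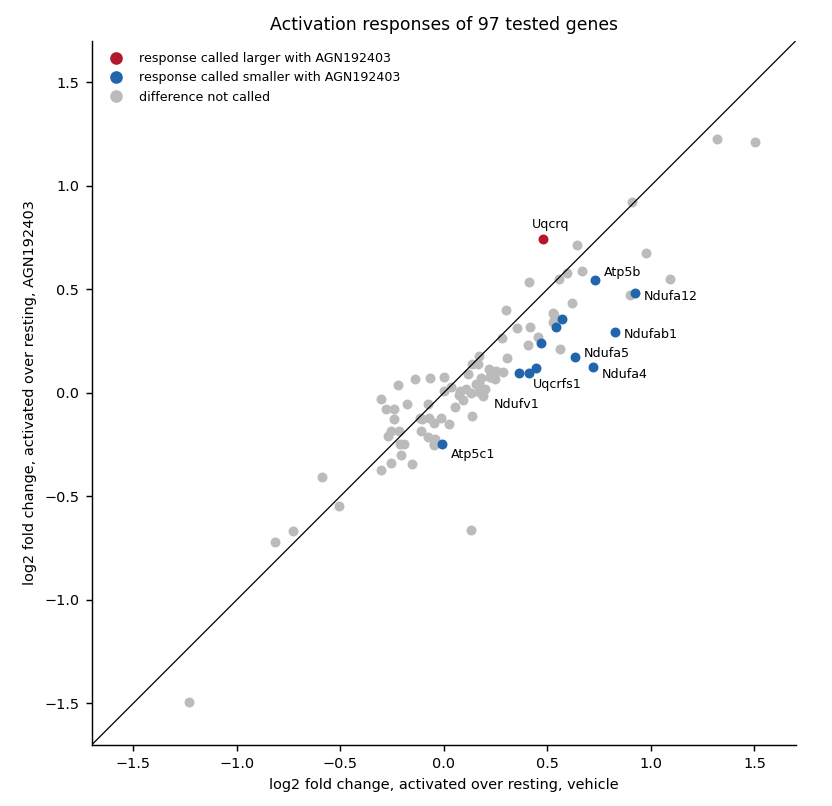
Log2 fold change between activated and resting cells with AGN192403 (vertical axis) against the same with vehicle (horizontal axis), for the 97 tested members other than Cox6a2. Blue points had a response called smaller with AGN192403, red points a larger one and grey points neither. The line marks equal responses. Ndufa4, Ndufab1 and Ndufa5 lay to the right of 0 and below the line of equal responses, and Uqcrq lay above that line.

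Several subunits are encoded by more than 1 gene, with forms that differ by tissue. Cox6a2 was at 55 and 48 counts in activated knockout and 76 and 92 counts in activated AGN192403 cells, against 2 and 2 counts in activated control cells. At rest it had 3 and 2 counts in knockout, 5 and 10 with AGN192403, against 0 and 1 in control cells. The ratio of its depth-scaled counts was 24.2 for activated knockout over control (95% exact interval 9.17 to 90.5) and 41.5 for activated AGN192403 over control (15.9 to 154). At rest it was 14.9 for AGN192403 over control (2.29 to 626) and 4.58 for knockout over control (0.512 to 217), the second interval including no difference. These intervals cover counting error only. Cox6a2 passed the expression filter only through activated knockout and activated AGN192403 cells, so that among tested genes it had to differ, and these ratios are a description and support nothing beyond its own counts. Its exons overlap Itgad on the opposite strand over 70 bases, 10.3% of its length, and Itgad was at 0 counts in all 6 activated libraries. The scale of the change is small in absolute terms, since Cox6a2 reached 3.40 and 5.17 CPM in activated knockout and 7.17 and 6.76 CPM in activated AGN192403 cells, while Cox6a1, the other form, was at 133 and 136 CPM in activated knockout and 142 and 151 CPM in activated AGN192403 cells, against 124 and 130 CPM in activated control cells.

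**Figure D5:**
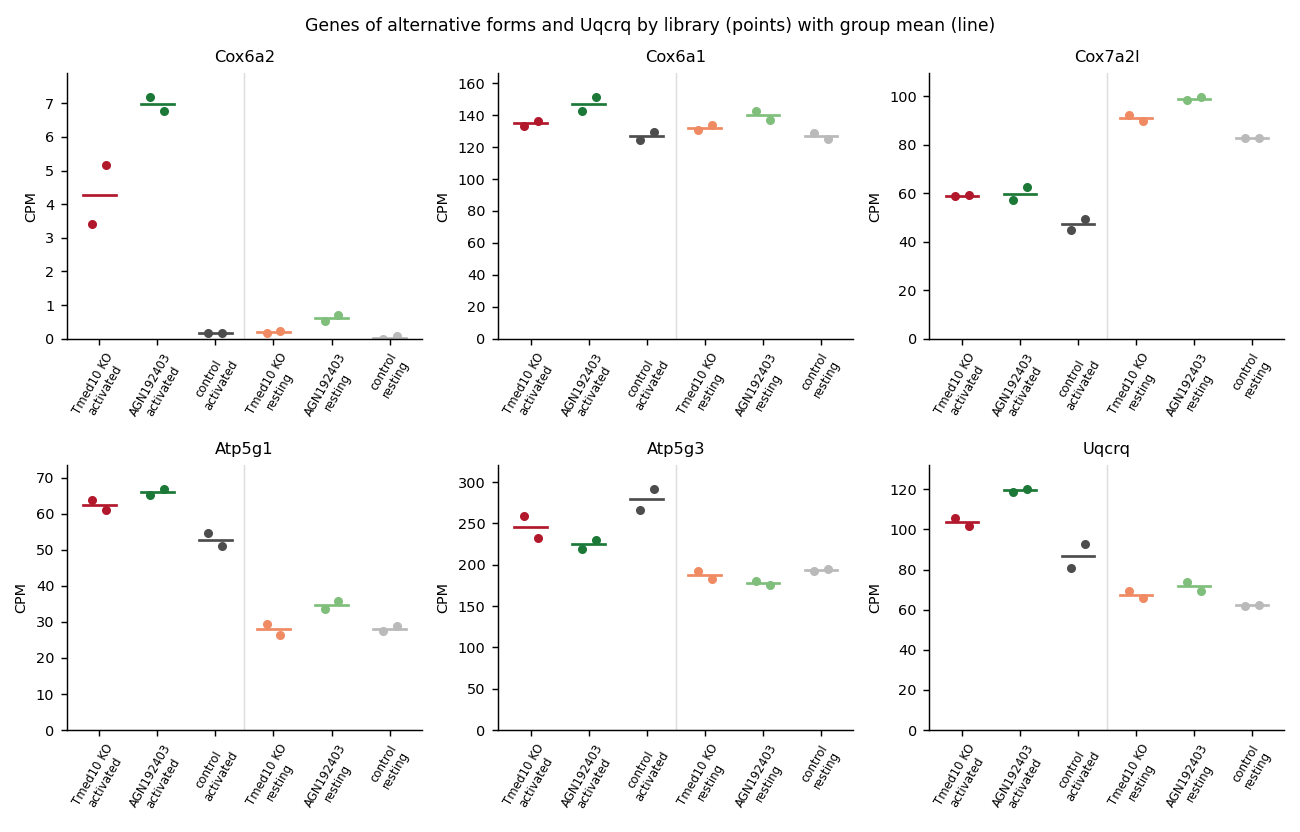
CPM of Cox6a2, Cox6a1, Cox7a2l, Atp5g1, Atp5g3 and Uqcrq in each library (points) with group means (lines), 6 groups of 2 libraries, axes from 0. Cox6a2 stood above 3 CPM in the activated knockout and activated AGN192403 libraries and below 1 CPM in all others.

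The ATP synthase c subunit is made from Atp5g1, Atp5g2 and Atp5g3, which differ in their import sequence and yield the same mature protein. Atp5g1 was at 63.7 and 61.1 CPM in activated knockout and 65.2 and 67.0 CPM in activated AGN192403 cells, against 54.7 and 50.9 CPM in activated control cells. Atp5g3 was at 219 and 231 CPM in activated AGN192403 cells and 267 and 292 CPM in activated control cells, so the 2 genes moved in opposite directions under both perturbations. In the knockout the call of Atp5g1 was lost without replicate 2 of activated control or replicate 1 of activated knockout cells, and that of Atp5g3 without replicate 2 of either group, while both calls with AGN192403 held in every alternative. Both rose with activation in control cells (0.91 and 0.53), whereas Atp5g2 fell by 0.27, although every 65-base stretch of Atp5g2 also occurs in another gene and its counts are uncertain. Cox6b1 rose by 0.17 with activation, and Cox6b2, the testis form, was at 1.42 and 1.85 CPM in activated and 4.496 and 3.33 CPM in resting control cells. Cox7a2 (0.09) and the heart and muscle form Cox7a1 (-0.21) did not pass. Cox4i2, Cox8b, Cox8c and Ndufa4l2 stayed below the expression filter. Atpif1, the inhibitor of ATP synthase, averaged 63.6 CPM in activated knockout and 56.7 CPM in activated AGN192403 cells, against 62.3 CPM in activated control cells, and passed in neither comparison.

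Promoter sequence was available for 76 of the 99 nuclear members in RefSeq (GRCm38.p6, 250 bases before to 50 after the start). The NRF1 motif (GCGCA, any base, then GCGC), searched on both strands as all motifs were and contained in none of the other 4, was present in 21 of 76 (27.6%), against 5.19% of 27025 genes. The ETS motif CCGGAAG was present in 21 (27.6%, against 9.93%), the YY1 motif AAGATGGC in 9 (11.8%, against 3.19%), the ERR motif TCAAGGTCA in 2 (2.63%, against 0.466%) and the E-box CACGTG in 5 (6.58%, against 8.09%). NRF1, ETS-family factors such as GABP, YY1 and ERR are textbook regulators of respiratory chain genes. Among members higher in activated control cells the NRF1 motif was in 11 of 36 promoters (30.6%), and among those lower in 3 of 14 (21.4%), and the ETS motif was in 11 of 36 (30.6%) and 4 of 14 (28.6%). The 27025 genes are all those with a promoter sequence, whether expressed in these cells or not, and no share over expressed genes alone was taken. A match is a description of letters and not of binding. Stretches are shown for 5 genes whose values are given above, with the motif in capitals and the gene's strand read 5′ to 3′. They are Ndufaf4 (chr4:24897940-24898009, plus strand, NRF1), Sdhd (chr9:50603859-50603958, minus, NRF1 and ETS), Atp5c1 (chr2:10080433-10080479, minus, NRF1), Atp5g1 (chr11:96075640-96075705, minus, E-box) and Atp5g3 (chr2:73911340-73911576, minus, E-box and ERR). Sdhd also held the ERR motif and Atp5g3 the NRF1 motif within the searched window but outside the stretch shown.
Ndufaf4: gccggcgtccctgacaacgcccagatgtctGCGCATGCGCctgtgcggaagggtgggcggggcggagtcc
Sdhd: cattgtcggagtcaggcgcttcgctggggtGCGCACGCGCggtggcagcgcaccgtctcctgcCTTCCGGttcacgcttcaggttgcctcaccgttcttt
Atp5c1: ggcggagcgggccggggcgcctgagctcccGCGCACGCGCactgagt
Atp5g1: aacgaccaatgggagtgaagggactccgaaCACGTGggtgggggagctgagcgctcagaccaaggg
Atp5g3: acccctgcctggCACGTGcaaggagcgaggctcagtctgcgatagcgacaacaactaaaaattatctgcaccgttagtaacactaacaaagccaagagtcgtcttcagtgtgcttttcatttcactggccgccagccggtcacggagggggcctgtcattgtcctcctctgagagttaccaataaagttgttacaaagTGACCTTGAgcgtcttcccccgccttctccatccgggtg

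Genes that serve the same pathway but fall outside the symbol rule were counted from lists. With activation in control cells, enzymes of the citrate cycle and pyruvate entry were higher in 16 of 19, with the other 3 not called, for example Idh3a, of the NAD-dependent isocitrate dehydrogenase (1.08), and Dlat, of pyruvate dehydrogenase (0.94). Cytochrome c and coenzyme Q synthesis genes were higher in 11 of 15 and lower in 1, with Coq4 at 1.80. Genes of mitochondrial DNA maintenance and transcription were higher in 23 of 35 and lower in 3, with Top1mt, the mitochondrial topoisomerase, at 1.81. Further assembly factors were higher in 22 of 47 and lower in 8, with the copper chaperone Sco1 at 1.67. Of 6 other genes of the complexes outside the rule, 3 were higher, with Cyc1, the cytochrome c1 haem protein of complex III, at 0.90. The 1 called lower was Uqcc3, an assembly factor of complex III and not a subunit (-0.77). The subunit Ndufc1 and the inhibitor Atpif1 were not called. Of 12 regulators 5 were higher, among them Pprc1 (1.39) and Myc (1.22), and 4 lower, among them Creb1 (-0.89). These shares stand beside 36.4% of all genes higher and 37.4% lower.

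With AGN192403 in activated cells, 3 of 35 mitochondrial DNA maintenance and transcription genes were higher and 12 lower, and 1 of 19 citrate cycle genes was higher and 3 lower, where 16.4% of all genes were higher and 18.3% lower. At rest 8 and 6 genes of these lists were higher and the others were not called, where 11.6% of all genes were higher and 13.7% lower. The interaction test called a smaller activation response for 9 of the 35 genes, where 11.1% of all genes were so called. Among them were Lrpprc, which stabilises mitochondrial messenger RNA (-0.46), and Tfb1m, a mitochondrial ribosomal RNA methyltransferase (-0.49), and of the other lists Sco1 (-1.02) and Idh3a (-0.46) were called too. With Tmed10 knockout in activated cells, 2 of the 35 genes were higher and 2 lower, and 2 of 19 citrate cycle genes were higher and the others were not called, close to or below the 10.8% of all genes higher and 8.78% lower.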

How the data were processed

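Raw counts per gene from 12 polyA-selected, stranded, single-end libraries were analysed. Per the labels and the study's methods, the authors aligned 65-base reads to GRCm38 (mm10) with STAR (2.6.0c in the submitters' processing notes) and deposited HTSeq counts per gene. Gene symbols were given for 46005 of 46603 identifiers, and the 598 without one held 0.0709% of counts. Genes passing filterByExpr were scaled by TMM and tested with edgeR 4.0.16 (R 4.3.3, limma 3.58.1) by the quasi-likelihood F test with Benjamini-Hochberg adjustment over all 13167 genes, with a call at an adjusted p under 0.05. All 12 libraries entered 1 fit with a mean per group and 6 residual degrees of freedom. CPM values are TMM-scaled. An exact permutation test of 2 against 2 libraries cannot go below p = 0.333 and was not used. Alternatives were DESeq2 1.42.0, other scalings and filters, a replicate block, only the libraries compared, and leaving out libraries. Named were mitochondrial members, core subunits, paralogue families, extremes of level and, per comparison, the 4 largest called rises and falls whose higher group averaged 10 CPM or more (2 per further list). Cox6a2, other members below 10 CPM and members with smaller changes were named after their values were seen. The members and lists were chosen with earlier results of these data known. A core subunit covered by this rule is not reported here.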

Additional observations from a re-analysis of the deposited data

Results flagged for a closer look

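The activation response, activated against resting on the log2 scale, differed between cell populations by the edgeR interaction test for 17 members. It was larger in Tmed10 knockout than in control cells for mt-Nd2 (0.26), mt-Nd4 (0.29), mt-Nd5 (0.27) and mt-Co1 (0.24), all mitochondrially encoded, where 3.07% of all genes had a larger and 1.89% a smaller response. These 4 calls fell to 0 without replicate 2 of resting control, replicate 1 of resting knockout or replicate 1 of activated knockout cells. With AGN192403 against vehicle the difference was negative, a smaller response, for all but Uqcrq: Ndufa12 (-0.44), Ndufa5 (-0.46), Ndufab1 (-0.53), Ndufv1 (-0.27), Ndufv2 (-0.31), Uqcrc1 (-0.21), Uqcrc2 (-0.22), Uqcrq (0.27), Uqcrfs1 (-0.33), Ndufa4 (-0.59), Atp5a1 (-0.23), Atp5b (-0.18) and Atp5c1 (-0.24). The 12 smaller responses were 12.2% of members, close to the 11.1% of all genes, and 8.62% of all genes had a larger response. Both sets of differences share the control libraries. With 2 libraries a group, no library could be tested for standing apart from its group.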

How the results depend on the processing

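No alternative reversed a called value. Leaving out 1 library at a time, the number of members called was 4 to 17 for knockout against control in activated cells (16 with all libraries), 0 to 7 at rest (4), 21 to 37 for AGN192403 against vehicle in activated cells (26), 10 to 23 at rest (19), 60 to 65 for activation in control (65), 45 to 58 in AGN192403 (53) and 56 to 68 in knockout cells (65), 0 to 6 for the knockout interaction (4) and 7 to 31 for the AGN192403 interaction (13). DESeq2 called 7 and 0 members for knockout activated and resting, 17 and 7 for AGN192403, 2 and 5 for the interactions. Without the 3 libraries rich in nuclear RNA, 9 members were called for activated knockout and 8 for the AGN192403 interaction, and at rest in the knockout 1 nuclear member was higher and 5 mitochondrial lower. For resting knockout, no expression filter left 2 and only the compared libraries gave 7. Median-ratio size factors left 2 in the knockout interaction. With replicate number as a block the AGN192403 interaction had 22 members, and no other count moved by over 1.5 times. The numbers are not given as pairs by the labels, and deviations of same-numbered libraries correlated above 0.1 in 3 of 15 group pairs (-0.00507 to 0.239). Members called in every alternative numbered 2, 0, 13 and 4 for the knockout and AGN192403 comparisons (activated, then resting each), 48, 37 and 48 for activation in control, AGN192403 and knockout cells, and 0 and 2 for the interactions. The 2 for activated knockout include Cox6a2, which entered the test only through activated knockout and activated AGN192403 cells. Depth and 2 libraries a group limit the smallest changes that could be called. The causes of these shifts were not tested.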
